A study of Mus musculus with 9 samples.

Results

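Wnt ligands, their Frizzled and LRP receptors, secreted Wnt inhibitors, R-spondins and a group of Wnt feedback and nuclear genes were followed in endothelial cells (ECs) sorted from mouse lungs with and without breast cancer metastases. Members were chosen by gene symbol alone: all Wnt, Fzd, Sfrp, Dkk and Rspo genes and 10 further pathway genes. The rule named 51 genes, and 50 of them were among the 18193 genes measured: 19 Wnt ligands, 10 Frizzled receptors, 2 LRP co-receptors, 9 secreted inhibitors, 4 R-spondins and 6 feedback and nuclear genes. Tcf7 was not analysed here.

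Wnt proteins are secreted lipid-modified ligands that bind a Frizzled receptor together with LRP5 or LRP6. In the canonical branch this stops the destruction of beta-catenin, which then enters the nucleus and acts with TCF/LEF factors on target genes, while other branches act on cell polarity without beta-catenin. Several target genes, such as Axin2, Nkd1, Znrf3 and Rnf43, encode inhibitors and so form negative feedback loops. In the vasculature the pathway is best known for the barrier of brain and retinal vessels, where Fzd4 acts as the receptor of norrin, and in the lung for its part in development and in the upkeep of alveolar cells.

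All mice were NSG, a strain that lacks mature lymphocytes and natural killer cells. Metastases grew from MDA-MB-231-LM2 cells, a single human breast cancer line selected for lung colonisation, which were injected into the tail vein 3 weeks before treatment. The 3 groups held 3 arrays each: healthy lungs from mice given rat IgG, metastatic lungs from mice given rat IgG, and metastatic lungs from mice given DC101, which is a rat antibody against VEGFR2, the main signalling receptor for VEGF in ECs (40 mg/kg). Mice with metastases received antibody on days 21 and 24 after injection of the cancer cells, and their lungs were taken on day 25. Mice were injected at an age of 6 to 8 weeks and the healthy mice were of matched age. Arrays of a group are labelled as biological replicates, with no statement of which mouse stands behind each one, so p-values measure the spread among these samples only.

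The sort took CD31-positive cells without markers of blood, epithelial, fibroblast or cancer cells. The 12 endothelial markers examined had values from 12.16 to 14.40 in healthy lungs on the log2 scale of the table, and their mean per array stayed between 13.44 and 13.55 in all groups. Single markers of other cells reached into that range, with values in healthy lungs of 6.90 to 13.29 for epithelial genes, 7.18 to 12.53 for fibroblast and mural genes and 6.36 to 12.62 for macrophage and myeloid genes, and none could be at 0, since this kind of value has no true 0. Their lists are given beside the results. DC101 replicate 3 lay apart on the second principal component of all genes (score -32.7) and DC101 replicate 1 on the third (score -28.8). As a measure of RNA quality, the 3-prime minus 5-prime signal of Gapdh was 0.69 to 0.77 in healthy lungs, and with metastases 0.47 to 0.57 under IgG and 0.35 to 0.60 with DC101, alongside all differences from healthy lungs reported here. Its part in them was not tested. No detection call came with the values, so a low value does not show that a gene was transcribed. In sorted bulk samples, a change in the share of a cell type and a change in RNA per cell cannot be told apart.

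Metastatic and healthy lungs under IgG were compared first, to ask how metastases alter lung ECs. The ligand gene Wnt9b rose 2.34-fold, while the feedback gene Axin2 fell 1.74-fold and the secreted inhibitor gene Wif1 fell 1.85-fold. These were the 3 members called by limma at an adjusted p under 0.05, or 6% of 50, where 6.53% of all genes were called. In each direction the share was also near that of all genes: 1 member was higher (3.93% of all genes) and 2 were lower (2.6% of all genes). The 3 arrays of each group did not overlap for 16 members (32%), against 27.6% of all genes. Of these 16, 4 were higher and 12 lower, beside 2356 higher and 2667 lower of all 18193 genes. The median log2 change of the members was -0.061, and that of all genes was -0.024.

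**Figure D1:**
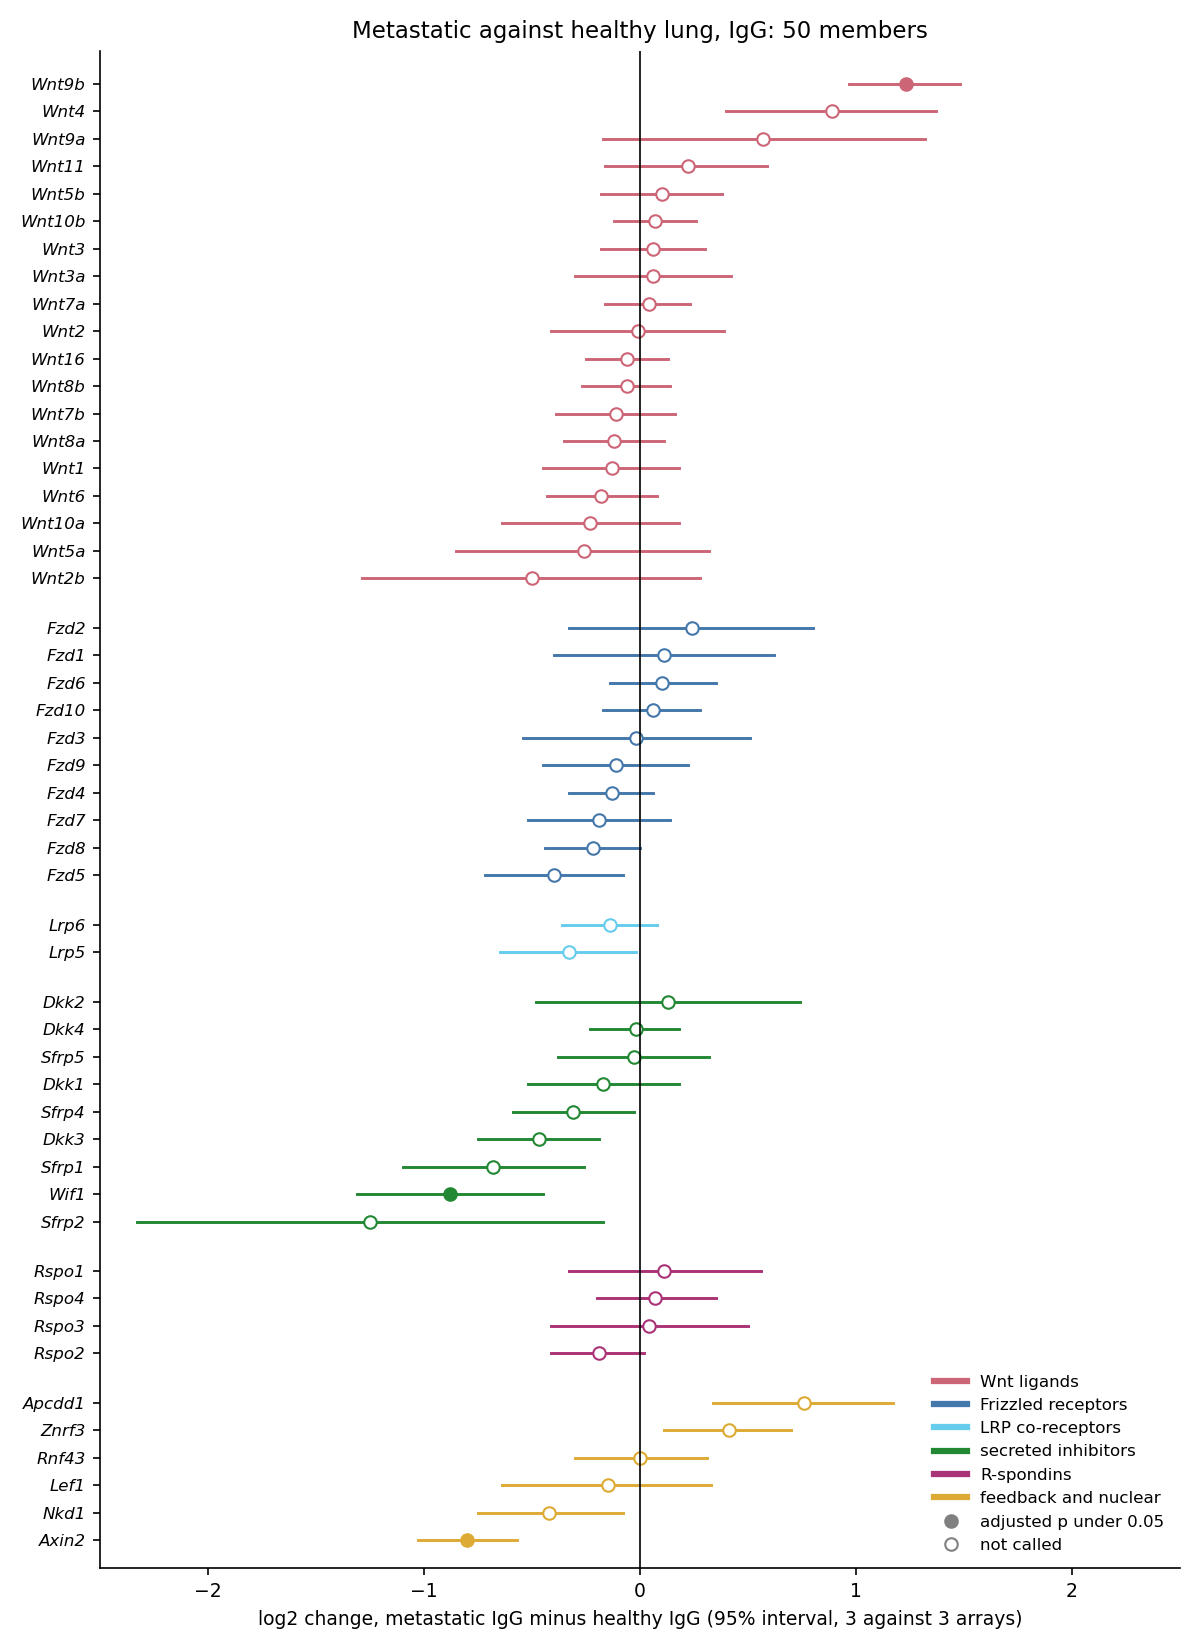
Log2 change of each of the 50 members between metastatic and healthy lungs under IgG (horizontal axis), with genes in rows ordered within their role. Lines are 95% intervals from 3 against 3 arrays, and filled points mark the called genes Wnt9b, Wif1 and Axin2.

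The promoters of the members called in any comparison are shown because these members moved between the groups, and the letters bear on whether a TCF/LEF site lies near their start. Sequences are the 250 bases before the start site, from RefSeq on build GRCm38.p6, written 5-prime to 3-prime on the strand of the gene, with capitals for the GC box GGGCGG or its reverse complement CCGCCC, a site of SP1-type factors.
Wnt9b, chr11:103749822-103750071, minus strand: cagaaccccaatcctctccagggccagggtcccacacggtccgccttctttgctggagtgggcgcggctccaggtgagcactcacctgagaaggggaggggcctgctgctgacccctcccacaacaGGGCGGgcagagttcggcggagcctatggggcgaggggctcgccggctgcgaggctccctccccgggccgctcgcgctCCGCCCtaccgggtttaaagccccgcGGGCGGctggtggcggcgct
Axin2, chr11:108920099-108920348, plus strand: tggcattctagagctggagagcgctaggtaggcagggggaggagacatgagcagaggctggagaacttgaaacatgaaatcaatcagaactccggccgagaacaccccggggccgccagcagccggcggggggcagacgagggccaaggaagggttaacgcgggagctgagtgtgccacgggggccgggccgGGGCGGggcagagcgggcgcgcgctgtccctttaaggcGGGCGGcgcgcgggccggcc
Wif1, chr10:121033754-121034003, plus strand: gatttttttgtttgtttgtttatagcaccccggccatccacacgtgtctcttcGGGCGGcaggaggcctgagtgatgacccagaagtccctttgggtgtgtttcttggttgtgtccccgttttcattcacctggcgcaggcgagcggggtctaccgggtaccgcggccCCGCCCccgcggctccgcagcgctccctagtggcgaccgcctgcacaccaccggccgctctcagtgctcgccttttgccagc
Sfrp2, chr3:83766071-83766320, plus strand: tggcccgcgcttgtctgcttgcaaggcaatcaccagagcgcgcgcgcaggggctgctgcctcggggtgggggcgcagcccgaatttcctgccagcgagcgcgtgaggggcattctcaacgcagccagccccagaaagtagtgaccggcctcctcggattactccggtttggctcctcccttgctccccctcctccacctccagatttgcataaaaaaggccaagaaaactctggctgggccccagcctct

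None of these windows held CTTTGAT or CTTTGAA, the core letters searched for TCF/LEF factors on both strands. The GC box occurred 3 times in the window of Wnt9b, 2 times in that of Axin2 and 2 times in that of Wif1, and 0 times in that of Sfrp2. RefSeq windows were found for 32 of the 50 members, with 39 start sites. One or the other TCF/LEF core lay in 3 of these 39 windows (7.69%), and in 7.48% of all 32851 windows. CTTTGAT alone was in 5.13% of the members' windows and 3.21% of all, and CTTTGAA in 2.56% and 4.46%. The GC box was in 66.7% of the members' windows and 32.7% of all. The members' windows were also richer in G and C, with a median of 66.4% against 52.4%, and held a median of 20 CG steps against 6. The 3 members with a TCF/LEF core are shown with 10 bases on each side of it, the core in capitals and, in Wnt11, on the other strand.
Dkk1, chr19:30549597-30549623, minus strand: cctcccaaagCTTTGAAatcccatccc
Wnt11, chr7:98835051-98835077, plus strand: acgtgggcggATCAAAGcgacggtccg
Wnt5b, chr6:119449441-119449467, minus strand: gtaagtctctCTTTGATctgctccctg

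The core began 117 bases before the start of Dkk1, 51 before that of Wnt11 and 71 before that of Wnt5b. None of these 3 genes was called in any comparison. A match is a run of letters and not a measured binding site.

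Among the 19 Wnt ligands, Wnt9b was the only one called. Wnt9b, which is known for its part in kidney and palate development, stood at 7.84, 8.08 and 7.87 in healthy lungs, at 9.13, 9.28 and 9.07 in metastatic lungs with IgG, and at 9.32, 8.94 and 9.03 with DC101. All 6 metastatic arrays lay above all healthy arrays, and the 2 metastatic groups overlapped. The log2 change between metastatic and healthy lungs under IgG was 1.23 (SE 0.11, 95% interval 0.97 to 1.48, adjusted p = 0.00169). Wnt9b was called in each of the 6 fits that left out an array, with changes of 1.17 to 1.30. These values came from 1 of its 2 probe sets. The other changed by -0.13, with group means of 7.52, 7.38 and 7.48 and overlapping arrays, and with the mean of both probe sets the change was 0.55.

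Wnt4, a ligand of kidney and female reproductive tract development, showed the same order of groups. It stood at 8.05, 8.25 and 7.98 in healthy lungs, at 8.61, 9.42 and 8.91 in metastatic lungs with IgG and at 8.94, 8.62 and 9.29 with DC101. No metastatic array reached down to a healthy one, but the metastatic arrays spread widely, and the log2 change of 0.89 (95% interval 0.40 to 1.37) missed the threshold (adjusted p = 0.0505). Its second probe set had a change of 0.54, also without overlap.

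The other 17 Wnt ligands had log2 changes from -0.50 to 0.57 and adjusted p-values of 0.358 or more. Wnt9a, a close relative of Wnt9b, had the highest of these changes. It stood at 7.40, 7.25 and 8.51 in healthy lungs and at 8.26, 8.15 and 8.46 in metastatic lungs with IgG, so that healthy replicate 3 lay above all metastatic arrays. Without that array Wnt9a was called. Its second probe set changed by -0.27. Wnt2b, with the lowest change, stood at 9.64, 9.02 and 10.27 in healthy lungs and at 8.67, 9.37 and 9.39 in metastatic lungs with IgG, and these arrays overlapped. Wnt2, a ligand of lung development, changed by -0.01 (95% interval -0.41 to 0.39) and Wnt11, a ligand of the non-canonical branch, by 0.22 (-0.16 to 0.59). Among these 17, the arrays were apart only for Wnt16, by a log2 change of -0.06.

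**Figure D2:**
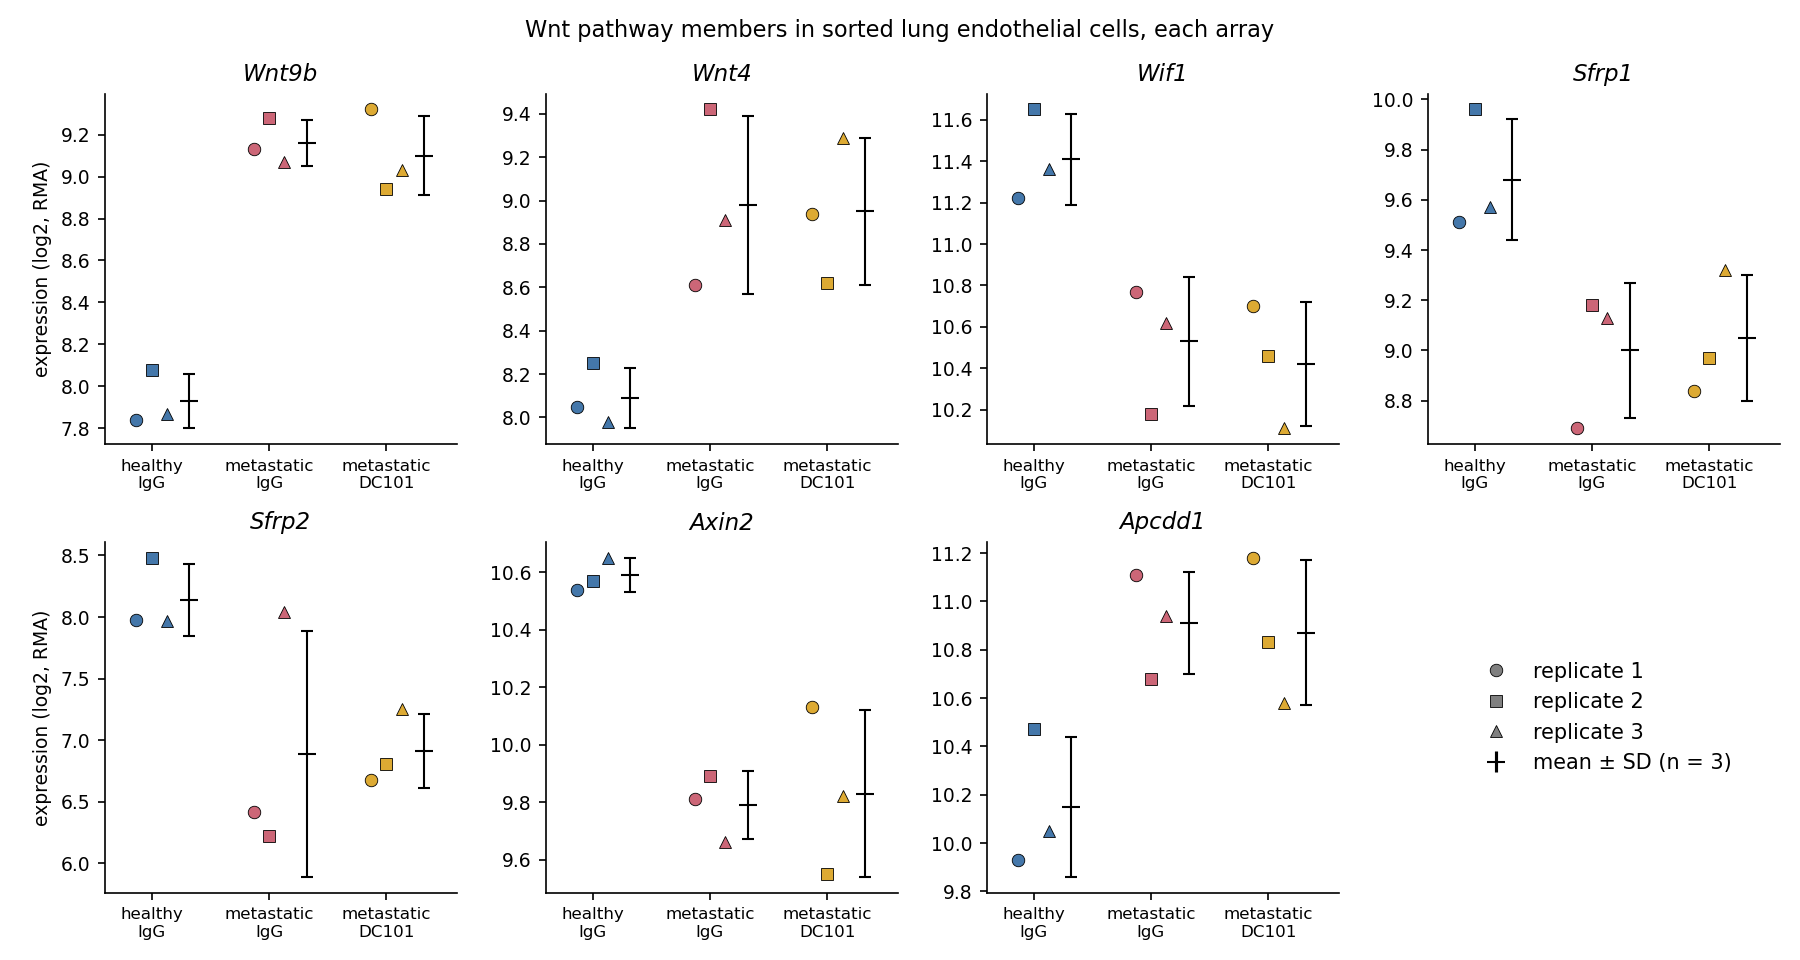
Expression of 7 members in each array (vertical axes, log2, scaled per panel) for the healthy IgG, metastatic IgG and metastatic DC101 groups, where bars give the group mean ± SD (n = 3). Wnt9b, Wnt4 and Apcdd1 lay higher and Wif1, Sfrp1 and Axin2 lower in all 6 metastatic arrays than in the healthy ones, while Sfrp2 had 1 metastatic IgG array at 8.04.

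No Frizzled receptor gene was called in this comparison, and with the probe sets used their log2 changes ran from -0.40 to 0.24 (adjusted p from 0.143 to 0.98). Other probe sets went beyond this range. Fzd3 changed by -0.02 with the probe set used, and its other probe sets by -0.67, without overlap, to -0.00. A second probe set of Fzd1 changed by 0.45, with overlapping arrays. Fzd4, the norrin receptor, stood at 12.81, 12.89 and 12.82 in healthy lungs and at 12.77, 12.67 and 12.68 in metastatic lungs with IgG. The arrays did not overlap, with a change of -0.13 (95% interval -0.33 to 0.06). Fzd5 stood at 9.82, 9.73 and 9.44 in healthy lungs and, in metastatic lungs with IgG, at 9.13, 9.44 and 9.22, a change of -0.40 (-0.72 to -0.08). Fzd8 had a change of -0.22 (-0.44 to 0.00). Fzd6, a receptor of the planar polarity branch, changed by 0.10 (-0.14 to 0.35).

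Neither co-receptor gene was called. Lrp5 stood at 11.73, 11.79 and 12.03 in healthy lungs and at 11.74, 11.39 and 11.43 in metastatic lungs with IgG, with overlap of 1 array and a change of -0.33 (95% interval -0.65 to -0.02, adjusted p = 0.211). Lrp6 had a change of -0.14 (-0.36 to 0.08, adjusted p = 0.448). The R-spondin genes, whose proteins raise Wnt signalling by clearing ZNRF3 and RNF43 from the membrane, had changes from -0.19 to 0.11 and none was called (adjusted p of 0.287 or more). Rspo3, a vascular R-spondin, changed by 0.04 (-0.41 to 0.50).

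Of the 9 secreted inhibitors, 8 had a log2 change below 0, where 9992 of all 18193 genes did. The 8 included Dkk4 and Sfrp5, at -0.02 and -0.03. The median of the 9 was -0.311, and 1 was called. Wif1 encodes a protein that binds Wnt ligands outside the cell. It stood at 11.22, 11.65 and 11.36 in healthy lungs, at 10.77, 10.18 and 10.62 in metastatic lungs with IgG and at 10.70, 10.46 and 10.11 with DC101. All metastatic arrays were below all healthy ones, with a change of -0.88 under IgG (SE 0.18, 95% interval -1.31 to -0.45, adjusted p = 0.0356). This call held in 1 of the 6 fits with an array left out, that without metastatic IgG replicate 1. Over these 6 fits the change was -1.01 to -0.71 and the adjusted p 0.0468 to 0.0991.

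Sfrp1 and Sfrp2 encode secreted proteins with a Frizzled-like domain that bind Wnt ligands. Sfrp1 stood at 9.51, 9.96 and 9.57 in healthy lungs, at 8.69, 9.18 and 9.13 in metastatic lungs with IgG and at 8.84, 8.97 and 9.32 with DC101. Its arrays were lower in metastatic lungs without overlap, but the change of -0.68 (95% interval -1.10 to -0.26) was not called (adjusted p = 0.0738). All 5 of its probe sets had changes below 0, from -0.70 to -0.20.

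Sfrp2 stood at 7.98, 8.48 and 7.97 in healthy lungs, at 6.42, 6.22 and 8.04 in metastatic lungs with IgG and at 6.68, 6.81 and 7.25 with DC101. Metastatic IgG replicate 3 lay among the healthy arrays, and the other metastatic arrays lay below them. With all arrays the IgG change was -1.25 (95% interval -2.33 to -0.17, adjusted p = 0.174). Without metastatic IgG replicate 3 it was -1.82 and was called (adjusted p = 0.0104). The mean of the fibroblast and mural markers in that array was 9.87, between the 9.68 and 10.03 of the other arrays of its group. Single markers went both ways there: Rgs5 and Fbln1 were the highest of the group, and Tcf21 and Cspg4 the lowest. The part of such cells in the Sfrp2 value of that array was not tested.

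The Dickkopf genes, whose proteins mostly block LRP5 and LRP6, were not called. Dkk3, the divergent member of the family, stood at 9.19, 9.26 and 9.44 in healthy lungs and at 8.65, 8.92 and 8.90 in metastatic lungs with IgG, a change of -0.47 (adjusted p = 0.0648). Its second probe set had a change of 0.28, also without overlap, so the direction of Dkk3 depended on the probe set. Dkk1 changed by -0.17, Dkk2 by 0.13 and Dkk4 by -0.02. Sfrp4 had a change of -0.31 without overlap (adjusted p = 0.186) and Sfrp5 one of -0.03. The second probe set of Sfrp5 had a change of 0.43, with overlapping arrays.

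Some marker genes of other lung cells also differed between these groups. Of 15 epithelial markers, 5 were called lower, among them Sftpc, surfactant protein C, with means of 13.03 in healthy and 11.67 in metastatic lungs with IgG. In the other direction 0 were called, but 5 had changes above 0, and Krt8 (0.70) and Pdpn (0.67) were higher without overlap. The epithelial list mean per array was 9.03 to 9.53 in healthy lungs, 8.80 to 8.96 with IgG and 8.81 to 9.56 with DC101. Of 16 fibroblast and mural markers, 3 fell and 3 rose: the fibroblast gene Tcf21 fell by 1.13, the matrix gene Dcn by 1.05 and the smooth muscle gene Myh11 by 1.14, while the collagen genes Col1a1, Col1a2 and Col3a1 rose by 1.85, 1.29 and 0.87. The list mean per array was 9.81 to 10.02 in healthy lungs, 9.68 to 10.03 with IgG and 10.06 to 10.16 with DC101. Of 8 platelet and erythroid markers 3 fell, with list means of 8.85 to 8.95 in healthy lungs and 8.03 to 8.25 with IgG. Their part in the lower values of Wif1, Sfrp1 and Sfrp2 was not tested.

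Of the 6 feedback and nuclear genes, 1 was called. Axin2, a scaffold of the complex that destroys beta-catenin and a widely used readout of canonical signalling, fell. It stood at 10.54, 10.57 and 10.65 in healthy lungs, at 9.81, 9.89 and 9.66 in metastatic lungs with IgG and at 10.13, 9.55 and 9.82 with DC101. The healthy arrays were tightly grouped above all metastatic ones, and the change under IgG was -0.80 (SE 0.10, 95% interval -1.03 to -0.57, adjusted p = 0.0055). Axin2 was called in each of the 6 fits with an array left out (-0.85 to -0.74). Its second probe set had a change of -0.25 with overlapping arrays, and with the mean of both the change was -0.53 (adjusted p = 0.0949).

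Nkd1, which binds Dishevelled and dampens Wnt signalling, stood at 13.04, 12.83 and 12.98 in healthy lungs, at 12.62, 12.73 and 12.25 in metastatic lungs with IgG and at 12.45, 12.64 and 12.44 with DC101. Its change under IgG was -0.42 (95% interval -0.75 to -0.08, adjusted p = 0.147), and all 4 of its probe sets were lower without overlap, by -0.51 to -0.40. It was called when the mean of these probe sets was tested.

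Apcdd1, a membrane inhibitor of Wnt signalling that is known from the retinal vasculature, lay on the other side. It stood at 9.93, 10.47 and 10.05 in healthy lungs, at 11.11, 10.68 and 10.94 in metastatic lungs with IgG and at 11.18, 10.83 and 10.58 with DC101. The change under IgG was 0.76 (95% interval 0.34 to 1.17, adjusted p = 0.0508). All 6 of its probe sets had changes above 0, from 0.32 to 0.76, and 3 of the 6 were without overlap. Apcdd1 was called without healthy replicate 2 (adjusted p = 0.0333) and without probe sets whose names end in _x_at, _s_at or _a_at. In all it was called in 4 of 14 alternative settings. With an array left out it was called in 1 of 6 fits, and the adjusted p reached 0.147. With the probe set of highest variance the change was 0.47 (adjusted p = 0.483).

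Znrf3 and Rnf43 encode ubiquitin ligases that remove Frizzled receptors from the membrane. Znrf3 stood at 10.18, 10.45 and 10.02 in healthy lungs and at 10.68, 10.63 and 10.55 in metastatic lungs with IgG. These arrays did not overlap, and the change of 0.41 (95% interval 0.11 to 0.70) was not called (adjusted p = 0.115). Rnf43 had a change of 0.00 (-0.30 to 0.31). Lef1, the DNA-binding partner of beta-catenin, had a change of -0.15 (-0.64 to 0.33) in 1 probe set and 0.37 in the other.

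**Figure D3:**
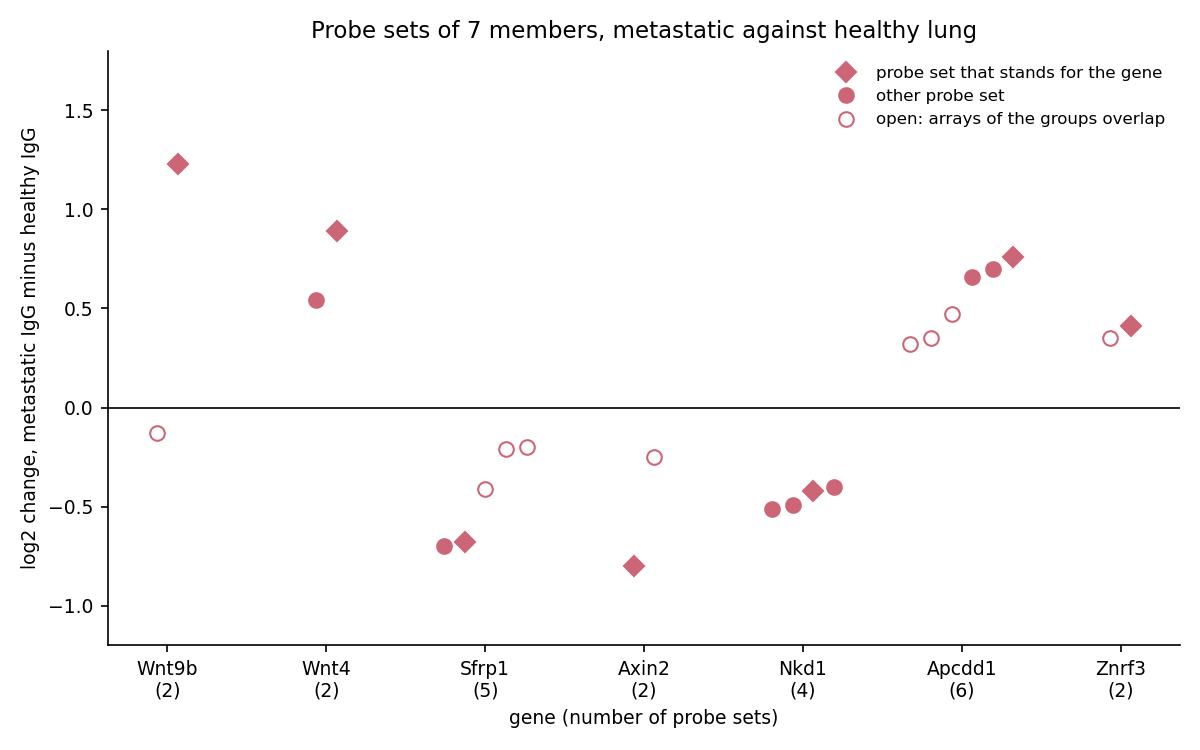
Log2 change between metastatic and healthy lungs under IgG (vertical axis) for each probe set of 7 members, with diamonds for the probe set that stands for the gene and open symbols where the arrays of the groups overlap. The probe sets of Axin2, Nkd1, Sfrp1, Apcdd1, Wnt4 and Znrf3 lie on 1 side of 0, those of Wnt9b on both.

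Markers of endothelial subtypes and of cycling cells also differed alongside these changes. Of 7 lymphatic markers 4 rose, and the list mean per array was 9.39 to 10.01 in healthy lungs, and with metastases 10.82 to 10.97 under IgG and 10.39 to 10.94 with DC101. Prox1, the transcription factor of lymphatic identity, had means of 7.41, 9.72 and 9.19. Lyve1 of the same list went the other way under IgG, by -0.20 without overlap. Of 9 cycling markers 7 rose, with list means of 8.56 to 8.99, 10.95 to 11.77 and 10.31 to 11.24. The general capillary list was 13.35 to 13.39, 13.14 to 13.19 and 13.21 to 13.24, with 1 of 11 markers called lower. Of 14 macrophage and myeloid markers 4 were called higher and 0 lower (8.42 to 8.54, 8.76 to 8.84 and 8.42 to 8.90). In this list 8 changes were above 0 and 6 below, and Ptprc was lower without overlap (-0.68). Venous markers had 3 of 9 called higher and 2 lower, with list means of 11.41 to 11.61, 11.61 to 11.82 and 11.75 to 11.89. Arterial markers had 1 of 11 higher and 2 lower (12.31 to 12.43, 12.28 to 12.32 and 12.26 to 12.28), and aerocyte markers 1 of 10 higher and 1 lower (12.63 to 12.81, 12.45 to 12.65 and 12.52 to 12.72). Of 10 lymphocyte markers 1 rose (7.16 to 7.37, 7.27 to 7.31 and 7.27 to 7.35). That marker was Thy1, with a change of 1.19, and it is also 1 of the 4 lymphatic markers that rose. Of 7 mesothelial markers none was called under IgG by limma, and 2 had an unadjusted p under 0.05 (3873 of all 18193 genes). With DC101, 1 of them was called higher than in healthy lungs (list means of 7.40 to 7.99, 7.61 to 7.98 and 7.62 to 8.77). The part of these cells in the values of Wnt9b, Wnt4, Apcdd1 and Axin2 was not tested.

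The other genes of the pathway were taken from lists of Wnt secretion and surface genes, cytoplasmic and nuclear components, planar polarity genes, beta-catenin targets and genes of the endothelial Wnt response. Of 124 measured, 5 were called higher and 4 lower, 7.26% in all against 6.53% of all genes, with a median log2 change of -0.053. Arrays did not overlap for 44 of them, 35.5% against 27.6% of all genes. No gene of the endothelial Wnt response list was called among its 16 genes (limma, lowest adjusted p = 0.0724), and its median change was -0.146. Of the 16, 4 had an unadjusted p under 0.05, where 3873 of all 18193 genes did.

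Canonical targets were found on both sides. Myc, a growth-related transcription factor, stood at 8.58, 8.54 and 8.30 in healthy lungs and at 10.57, 10.67 and 10.34 in metastatic lungs with IgG, a 4.15-fold rise (adjusted p = 0.000486). Ccn4, a matricellular protein also known as WISP1, stood at 8.49, 8.73 and 9.0 in healthy lungs and at 10.48, 10.42 and 9.86 in metastatic lungs with IgG, and rose 2.85-fold (adjusted p = 0.00798). Ccnd1, cyclin D1, rose by 0.76 (adjusted p = 0.00426).

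Nkd2, the paralog of Nkd1, was the clearest decrease. It stood at 10.50, 10.51 and 10.51 in healthy lungs, at 9.47, 9.35 and 9.24 in metastatic lungs with IgG and at 9.38, 9.10 and 9.65 with DC101. The change under IgG was -1.15 (SE 0.09, adjusted p = 0.00137), with a call in each of 14 alternative settings. Id2, an inhibitor of helix-loop-helix factors, fell by 0.93 (adjusted p = 0.0187) and Cd44, the hyaluronan receptor, by 0.68 (adjusted p = 0.0334). Id2 was called in 3 of 6 fits with an array left out and Cd44 in 1 of 6. Id2 had a change of -0.14 when a probe set of another type stood for it.

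Outside the targets, Celsr1, a cadherin of the planar polarity branch, rose 2.49-fold, with 7.41, 7.24 and 6.99 in healthy lungs and 8.77, 8.40 and 8.42 in metastatic lungs under IgG (adjusted p = 0.00462). Sdc4, a heparan sulfate proteoglycan of the cell surface, rose by 0.48 (adjusted p = 0.0207). Bcl9l, a coactivator of beta-catenin, fell by 0.59 (adjusted p = 0.0172), and both Sdc4 and Bcl9l lost their call in most fits with an array left out, in 5 and 4 of 6.

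**Figure D4:**
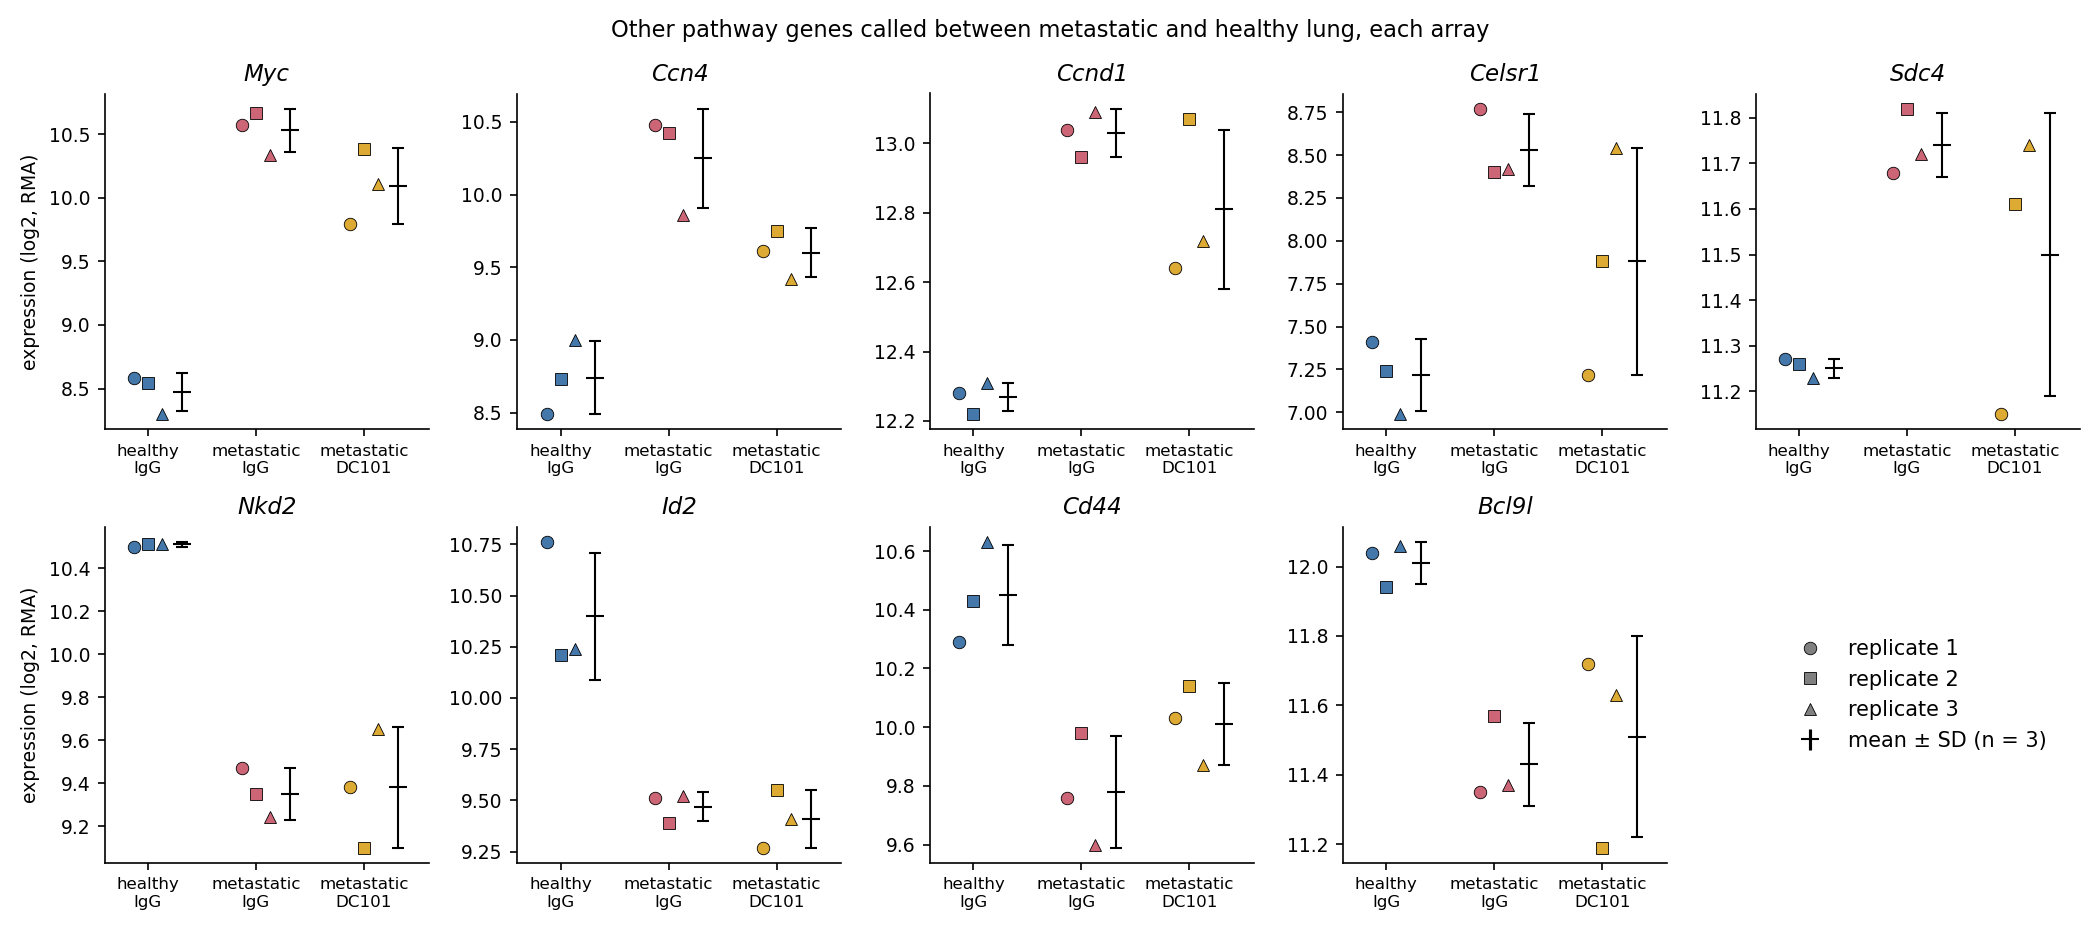
Expression of the 9 other pathway genes called between metastatic and healthy lungs under IgG, in each array (vertical axes, log2, scaled per panel), where bars give the group mean ± SD (n = 3). Myc, Ccn4, Ccnd1, Celsr1 and Sdc4 lay higher and Nkd2, Id2, Cd44 and Bcl9l lower with metastases, and the DC101 arrays of Celsr1 spread from 7.22 to 8.54.

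The next comparison asked what VEGFR2 blockade changed in metastatic lungs. No member was called by limma between DC101 and IgG, and 0% of all genes were. At an unadjusted p under 0.05 there were 2 members, Dkk2 and Lef1, where 6.65% of all genes passed. The arrays did not overlap for 3 members, Lef1, Sfrp4 and Wnt3, against 12.4% of all genes. The median log2 change of the members was 0.012, that of all genes -0.019, and the 95% intervals had a median half-width of 0.34.

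The called members, and Sfrp1, Wnt4 and Apcdd1, had estimates near 0 between DC101 and IgG, but with intervals of unequal width. For Wnt9b the DC101 minus IgG change was -0.06 (95% interval -0.37 to 0.25) and for Axin2 0.05 (-0.33 to 0.43). For Wif1 it was -0.10 (-0.58 to 0.37), for Sfrp1 0.04 (-0.38 to 0.47), for Wnt4 -0.03 (-0.59 to 0.54) and for Apcdd1 -0.04 (-0.47 to 0.38). Of the members with smaller changes, Dkk3, apart and at -0.47 between metastatic and healthy lungs under IgG, had a DC101 minus IgG change of 0.26 (-0.10 to 0.61). The second probe set of Dkk3 rose in both comparisons, by 0.28 and 0.30, so its opposite sign depended on the probe set. The DC101 minus IgG changes of Sfrp4, Fzd8, Fzd4 and Rspo2 were 0.22, 0.18, 0.17 and 0.16, also opposite in sign to the difference from healthy lungs. None of these 5 was called in either comparison. Znrf3, apart and higher under IgG, was opposite too, at -0.15. Fzd5, Lrp6, Nkd1 and Wnt16, also apart and lower under IgG, had changes of -0.05, -0.11, -0.03 and -0.04, in the same direction. For Nkd1 and Fzd5 this held only for the probe set used. The other probe sets of Nkd1 had changes of 0.13, 0.16 and 0.38, the last without overlap, and that of Fzd5 had 0.08. The metastatic IgG arrays enter both differences with opposite sign, so opposite signs are no independent evidence of a return towards healthy levels. The interval of Sfrp2, from -1.03 to 1.07, was too wide to tell a return to healthy levels from no shift. A missed threshold does not show that the groups were alike.

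Lef1 had the largest increase among the members. It stood at 8.00, 8.04 and 7.54 with IgG and at 8.37, 8.37 and 8.23 with DC101, a change of 0.46 (95% interval 0.10 to 0.82, adjusted p = 0.741). Dkk2 stood at 7.77, 8.11 and 8.66 with IgG and at 7.54, 6.94 and 7.92 with DC101, a change of -0.72 (-1.41 to -0.02, adjusted p = 0.741), and its arrays overlapped. Wnt3 stood at 6.71, 6.98 and 6.84 with IgG and at 7.15, 7.08 and 6.99 with DC101. Sfrp4 had a change of 0.22 (-0.08 to 0.52) and Wnt5a, a ligand of the non-canonical branch, 0.42 (-0.13 to 0.97).

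Among the other pathway genes none was called in this comparison by limma, and 10 of 124 had an unadjusted p under 0.05, 8.06% against 6.65% of all genes. Ccn4, whose 3 DC101 arrays lay below the 3 IgG arrays at 9.61, 9.75 and 9.42, had a change of -0.66 (95% interval -1.09 to -0.22, adjusted p = 0.737). Myc had a change of -0.43 (-0.83 to -0.03, adjusted p = 0.741). Celsr1 stood at 7.22, 7.88 and 8.54 with DC101, from the healthy to the metastatic range.

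**Figure D5:**
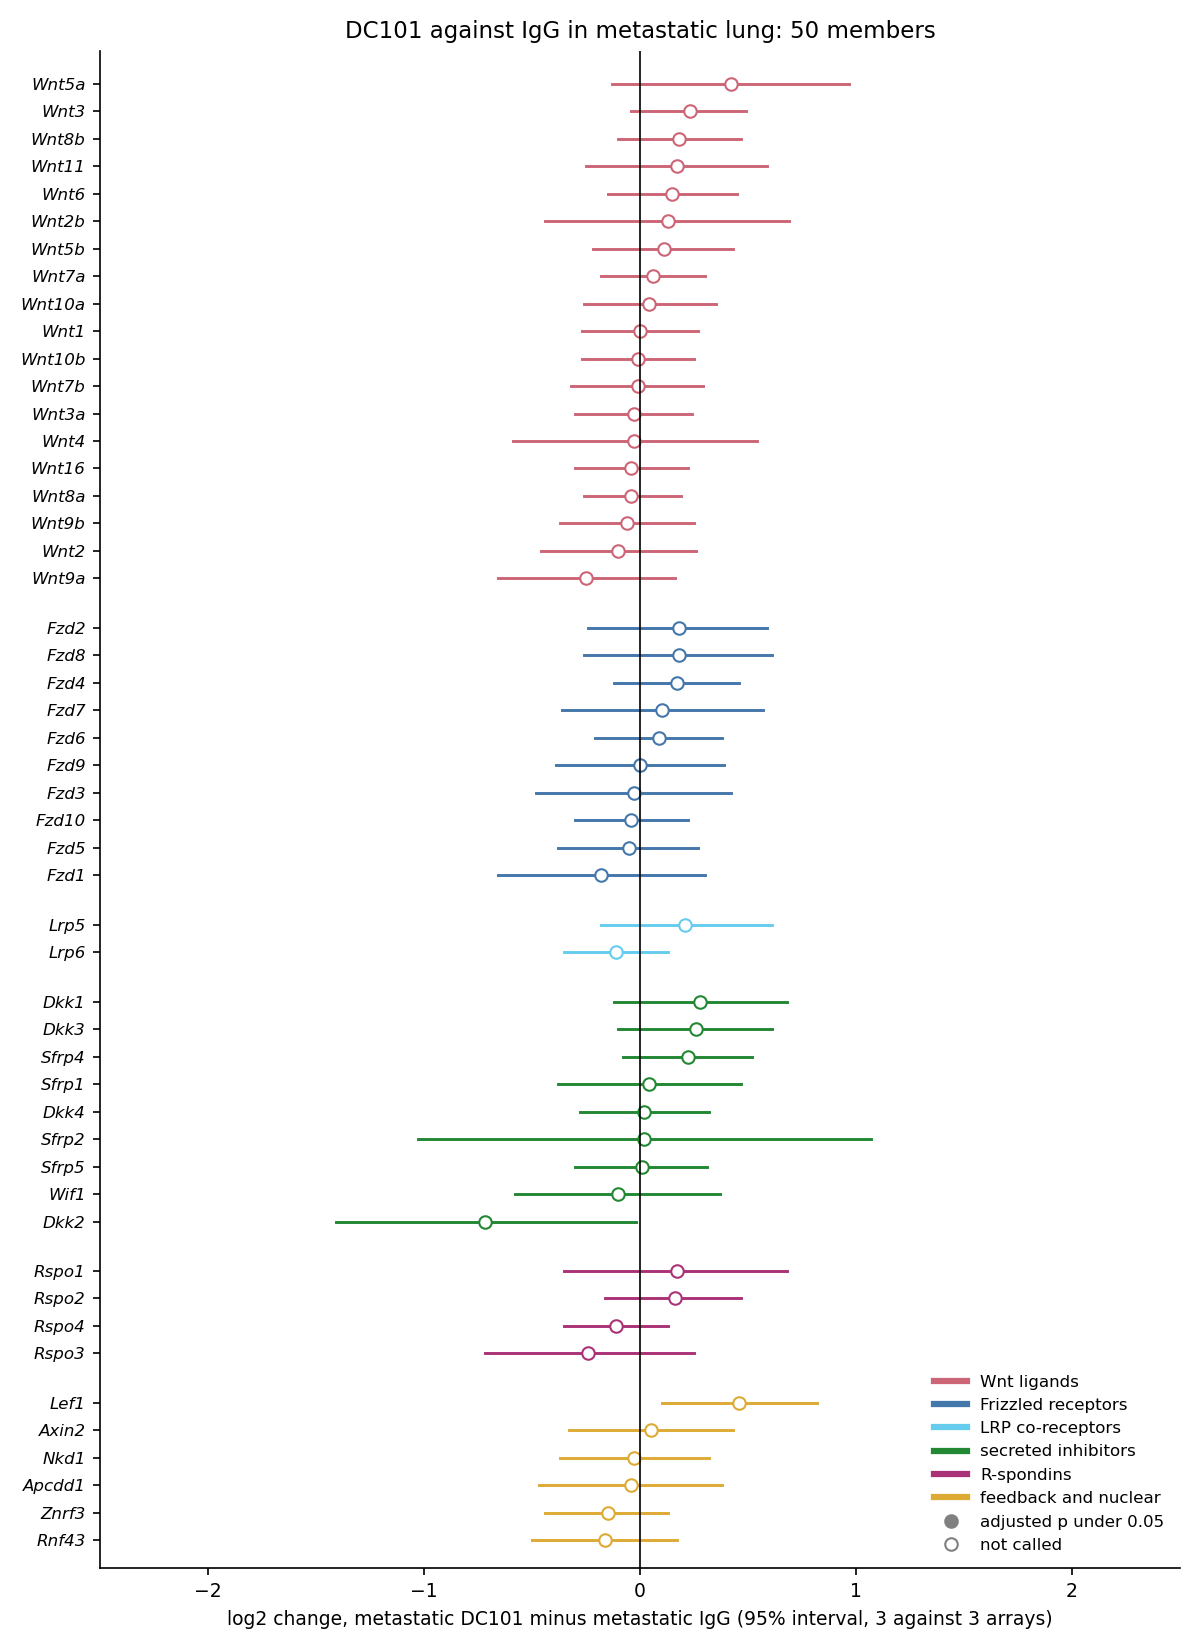
Log2 change of each of the 50 members between DC101 and IgG in metastatic lungs (horizontal axis), with 95% intervals from 3 against 3 arrays and genes ordered within their role. All points are open because no member was called, and only the intervals of Lef1 and Dkk2 leave out 0.

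The last comparison set metastatic lungs with DC101 against healthy lungs with IgG. It shares its arrays with the other comparisons, so its values stand beside theirs and are no independent evidence. By limma 3 members were called (6%), against 2.42% of all genes: Wnt9b was higher (1.58% of all genes), and Wif1 and Sfrp2 were lower (0.835% of all genes). The arrays did not overlap for 12 members, against 23.1% of all genes, and the median log2 change was -0.041, beside -0.036 over all genes.

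Wnt9b had a change of 1.17 (95% interval 0.85 to 1.49, adjusted p = 0.00843), and was called in 5 of 6 fits with an array left out. With the mean of both its probe sets the change was 0.57 (adjusted p = 0.0566). Sfrp2, which missed the threshold under IgG, had a change of -1.23 under DC101 (95% interval -1.70 to -0.77, adjusted p = 0.0268), where its SD was 0.30 with DC101 and 1.0 with IgG. That call held in 1 of 6 fits with an array left out, that without DC101 replicate 3. Wif1 had a change of -0.99 (-1.41 to -0.56, adjusted p = 0.0408) and was called in 0 of 6. Without healthy replicate 1 no member was called.

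Axin2 had a change of -0.76 against healthy lungs under DC101 (95% interval -1.12 to -0.39, adjusted p = 0.0594), and was called without DC101 replicate 1, where it stood highest at 10.13. Wnt4 had 0.86 (adjusted p = 0.0622), Apcdd1 0.71 (adjusted p = 0.131), Sfrp1 -0.64 (adjusted p = 0.126) and Nkd1 -0.44 (adjusted p = 0.111), all without overlap. Wnt11, at 8.06, 8.47 and 8.47 with DC101 against 7.76, 8.03 and 8.06 in healthy lungs, had a change of 0.38 (0.03 to 0.74). Of the 124 other pathway genes, 4 were called: Myc rose by 1.62 and Ccn4 by 0.85, and Nkd2 fell by 1.13 and Id2 by 0.99. Id2 was called there in 0 of 6 fits with an array left out.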

How the data were processed

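ECs were sorted from whole lungs and RNA was amplified and hybridised to GeneChip mouse genome arrays, 1 per sample. The deposited values are log2 expression values per probe set that the authors made by robust multiarray averaging (RMA), which equalises the distributions of the 9 arrays, so a change of total RNA cannot be seen. The log base is not stated and was taken from RMA.

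Probe sets with 1 gene symbol (34945 of 45101) were used, with the probe set of the highest mean over the 9 arrays for each of 18193 genes. Each comparison was fitted on its own 6 arrays by a moderated two-sided test (limma 3.58.1, functions lmFit and eBayes, under R 4.3.3), with Benjamini-Hochberg adjustment over all genes, and called at an adjusted p under 0.05. The test was checked on simulated data. Alternatives were other choices of probe set, a filter on dim genes, all 9 arrays in 1 fit, a replicate block, other variance moderation and leaving out each array. The number of arrays limits the precision. Values in every array were given for members called in any comparison, or without overlap and with a log2 change of at least 0.5, and other members shown with values were chosen after these had been seen. Of other pathway genes, those called are named, and Celsr1, Ccn4 and Myc again under DC101. The members, lists and alternatives were chosen with earlier results of these data known.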

Additional observations from a re-analysis of the deposited data

How the results depend on the processing

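Between metastatic and healthy lungs under IgG, the 3 members called became 5 with genes above the median level only (among 15 members) and 5 with an intensity trend and robust moderation, and the 9 other pathway genes became 14 and 17. With an array left out, 2 to 4 members and 5 to 9 other pathway genes were called, the 5 without metastatic IgG replicate 3. Wif1 was lost without variance moderation (adjusted p = 0.15). Another setting dropped probe sets with names ending in _x_at, _s_at or _a_at. The only probe set of Wif1 has a name ending in _a_at, so Wif1 was not tested there. Between DC101 and healthy lungs, the 3 members became 1 with the replicate block and 0 without variance moderation, and 0 to 2 with an array left out. The shares of all genes called there were 1.36%, 0.077% and 0.605% to 1.98%, against 2.42% in the main fit. The 4 other pathway genes became 2 without these name types, 2 with the probe set of highest variance, 2 with the block, 0 without moderation and 1 to 2 with an array left out. Between DC101 and IgG every setting called 0 members.

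Under DC101 against IgG the sign of small changes was not stable. It turned for Apcdd1 with the mean of all probe sets (0.03) or the probe set of highest variance (0.29), and with that mean for Wnt4 (0.01) and Wnt9b (0.02). With an array left out the log2 changes ran from -0.20 to 0.10 for Apcdd1, -0.10 to 0.19 for Axin2, -0.11 to 0.15 for Sfrp1, -0.32 to 0.59 for Sfrp2, -0.27 to 0.05 for Wif1, -0.21 to 0.19 for Wnt4 and -0.17 to 0.02 for Wnt9b. The cause was not tested.

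Arrays with the same replicate number did not deviate together (correlations of -0.0543 to 0.0845), and 2 of 9 arrays correlated best with their own number. No sign of pairing by number was thus seen, but with 3 arrays per group this check cannot exclude it. With the replicate block, 3 members were called between metastatic and healthy lungs under IgG (Wnt4, Wnt9b and Axin2, without Wif1), 0 between DC101 and IgG and 1 between DC101 and healthy lungs, and 689, 0 and 247 genes in all.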

Other observations

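Of the 50 members, 30 had more than 1 probe set, and for 12 of these the probe sets changed in opposite directions between metastatic and healthy lungs under IgG. In 5 the changes lay at least 0.5 apart on the log2 scale: Dkk3, Lef1, Wnt5a, Wnt9a and Wnt9b. For Wnt5a, a ligand of the non-canonical branch, the probe set of the highest mean changed by -0.26, and another of its 4 probe sets rose without overlap by 0.85, with group means of 6.37 (healthy IgG), 7.22 (metastatic IgG) and 6.91 (metastatic DC101). For Lef1 the second probe set had means of 6.69, 7.06 and 7.20 in these groups.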
